A study of Mus musculus with 8 samples.

Results

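The 52 genes described here encode homeodomain transcription factors that pattern the embryo and lie outside the Hox clusters. They were chosen by name as members of 16 families, Dlx, Nkx, Lhx, Isl, Lmx1, Six2/Six3/Six6, Irx, Msx, Gbx, En, Emx, Barhl, Evx, Gsx, Pitx and Alx, and make up 52 of the 21900 protein-coding genes in the RefSeq table of GRCm38.p6, the assembly behind mm10. All 52 were found in that table, and 41 of them had a METTL14 peak in the gene or within 2 kb of it in at least 1 library, against 20.8% of all protein-coding genes. A homeodomain is a DNA-binding fold, and these factors set regional and cell identity in the nervous system, limbs, face, heart, gut and pancreas. In undifferentiated embryonic stem cells most such genes are known to be held silent by Polycomb complexes at CpG-rich promoters, and are switched on only as cells commit to a lineage. METTL14 and METTL3 are the core subunits of the enzyme that places N6-methyladenosine on RNA, with METTL3 as the catalytic one. Expression, Polycomb marks and RNA methylation were not measured in these data.

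The sites came from CUT&RUN, in which an antibody tethers micrococcal nuclease to chromatin and the fragments it releases are sequenced. Mouse embryonic stem cells labelled C57BL/6 were grown with serum, LIF and inhibitors of GSK3 and MEK (CHIR99021 and PD0325901). METTL14 was profiled in cells labelled Mettl3 CKO and in Mettl3 control cells, and METTL3 in cells labelled Mettl14 CKO and in Mettl14 control cells, with 2 libraries in each of the 4 groups. What CKO stands for, and how or when an allele was removed, is not written in the labels. Nor do they state whether the paired libraries are separate cultures or clones, so any p-value over libraries measures their spread alone, which could be technical. Each antibody was used in its own cell line, so antibody and line cannot be told apart. For METTL14, 3922 and 1439 peaks were listed in the Mettl3 CKO libraries, against 3129 and 3546 in the Mettl3 control libraries, with a median width of 149 bp in each. For METTL3, 242 and 344 peaks were listed in the Mettl14 CKO libraries, against 353 and 341 in the Mettl14 control libraries, with median widths of 267 and 245 bp, against 285 and 277 bp. Read depth is unknown, and a deposited list shows only where signal passed the authors' threshold. The labelled cell type was not checked, because peak positions do not show which genes were expressed.

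METTL14 peaks lay at many of these genes in every METTL14 library. In Mettl3 CKO replicate 1, 32 of the 52 genes had a peak, where 12.9% of all protein-coding genes did. In CKO replicate 2, the shortest list, 19 of 52 had a peak, against 4.91% of all genes. The control libraries marked 26 of 52 genes in replicate 1 (9.71% of all genes) and 35 of 52 in replicate 2 (11.2% of all genes). The share of the 52 genes with a peak was therefore 61.5% and 36.5% in the CKO libraries and 50% and 67.3% in the control libraries. A peak in all 4 METTL14 libraries was found at 16 of the 52 genes (2.53% of all genes). None was found in any METTL14 library at 11 of the 52 (79.2% of all genes). These 52 genes are shorter than most, with a median length of 6668 bp against 17146 bp for all protein-coding genes.

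**Figure D1:**
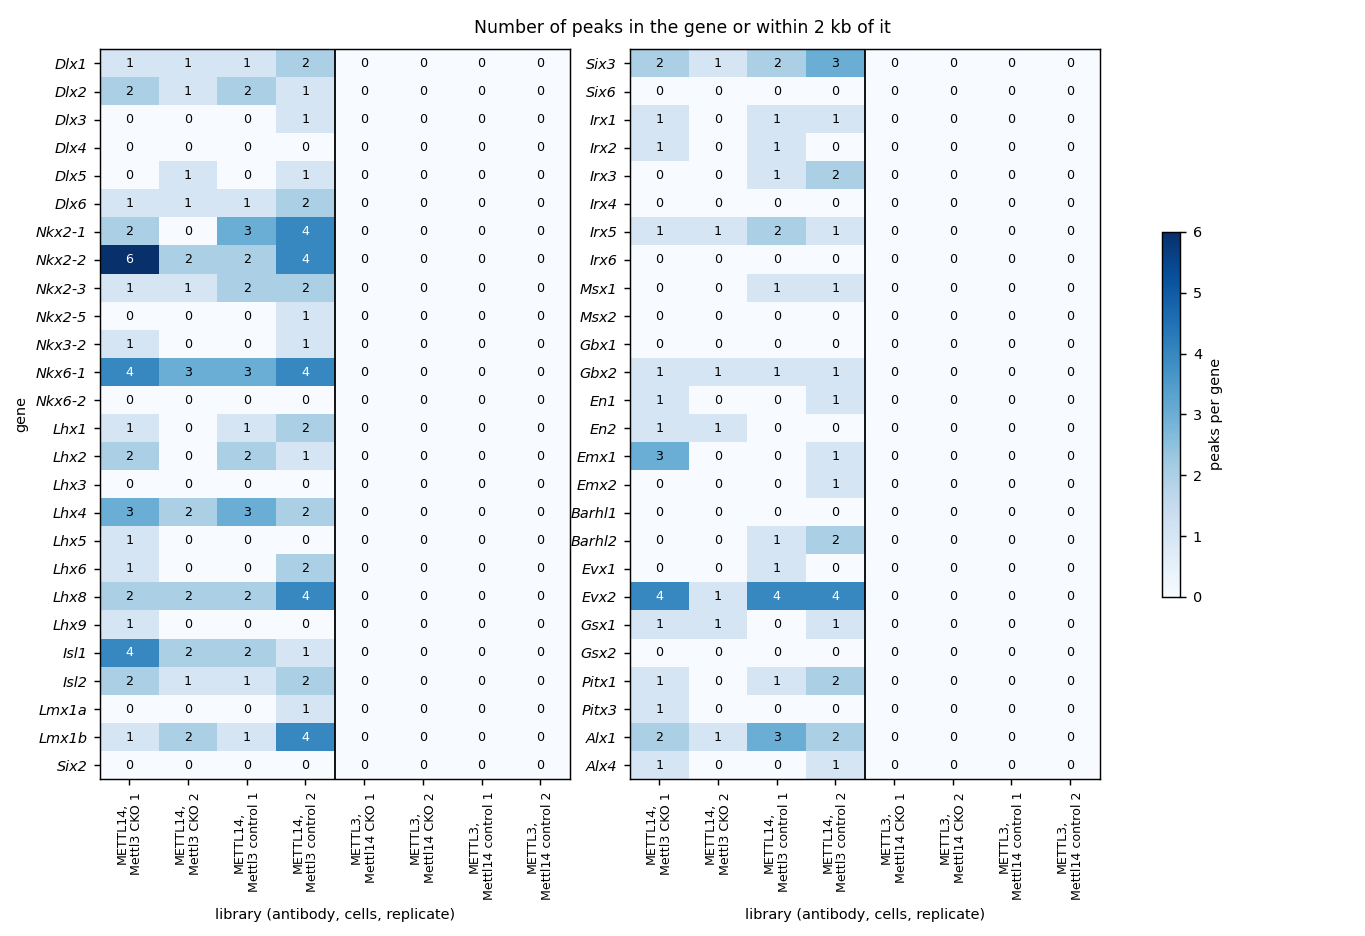
Number of deposited peaks in each of the 52 genes or within 2 kb of it (cell value and colour, peaks per gene) in each of the 8 libraries, with antibody and cells named under each column. METTL14 columns hold up to 6 peaks in a gene, at Nkx2-2 in Mettl3 CKO replicate 1, and the METTL3 columns hold 0 throughout.

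Marked genes of this group often carried several peaks. In the CKO libraries 13 of the 32 marked genes (40.6%) in replicate 1 and 6 of the 19 (31.6%) in replicate 2 had more than 1 peak. In the control libraries the counts were 13 of 26 (50%) and 18 of 35 (51.4%). Over all marked protein-coding genes the shares were 15.5% and 11.9% in the CKO libraries and 13.1% and 14.5% in the control libraries. The windows of the 52 genes thus took up 57 peaks in CKO replicate 1, which is 1.45% of that list (95% Wilson interval 1.12% to 1.88%), and 26 in CKO replicate 2 (1.81%, 1.24% to 2.63%). They took up 45 peaks in control replicate 1 (1.44%, 1.08% to 1.92%) and 66 in control replicate 2 (1.86%, 1.47% to 2.36%). The intervals cover counting error only.

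The number of marked genes did not differ detectably between Mettl3 CKO and Mettl3 control cells. It averaged 25.5 ± 9.19 (SD, n = 2) in Mettl3 CKO libraries and 30.5 ± 6.36 (SD, n = 2) in Mettl3 control libraries, a difference of -5 (two-sided exact permutation p = 0.667, where 2 libraries against 2 cannot go below 0.333). The 2 groups overlapped, and without CKO replicate 2 the difference was 1.5. The share of each list's peaks at the 52 genes averaged 1.63% ± 0.250 in CKO and 1.65% ± 0.299 in control libraries (SD, n = 2 each), a difference of -0.0196 percentage points (two-sided exact permutation p = 1). With every METTL14 list shortened to its first 1439 peaks, 29 and 19 genes were marked in the CKO libraries (4.63% and 4.91% of all genes), against 26 and 30 in the control libraries (4.4% and 4.33% of all genes). The shortened lists follow the order in which peaks were deposited, which is not explained. A design of this size cannot show that the groups are alike.

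Peaks of the 2 libraries of a group often fell in the same gene without touching each other. In CKO cells 18 of the 52 genes had a peak in both libraries (3.91% of all genes), and at 8 of the 52 a peak of one overlapped a peak of the other by at least 1 bp, here called a replicated region (3.15% of all genes). In control cells 24 of 52 had a peak in both libraries (5.37% of all genes) and 14 of 52 a replicated region (3.82% of all genes). Overlap was thus reached at 44.4% of the genes marked in both CKO libraries and 58.3% of those marked in both control libraries, whereas over all protein-coding genes it was 80.2% and 71.1%. The 10 genes of CKO cells without overlap had nearest peaks 37 to 939 bp apart, with a median of 90 bp. The 10 of control cells had them 79 to 3286 bp apart, with a median of 467.5 bp. When each peak was widened by 500 bp, 18 genes in CKO cells (3.9% of all genes) and 21 in control cells (4.87% of all genes) had a replicated region. Where peaks did overlap, their centres differed by a median of 28 bp over 10 regions in CKO cells and 14 bp over 19 regions in control cells.

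Replicated regions in both genotypes marked 6 of the 52 genes, against 1.78% of all genes: Dlx2, Nkx2-2, Nkx6-1, Isl1, Lmx1b and Gbx2. The same region was replicated in both genotypes at only 3 of them, Nkx2-2, Isl1 and Gbx2, and at the other 3 the replicated regions lay at different places. The 6 genes are 75% of the 8 genes marked in CKO and 42.9% of the 14 marked in control cells. Over all protein-coding genes 56.5% of those marked in CKO and 46.5% of those marked in control were marked in both. A replicated region in at least 1 genotype marked 16 of the 52 genes (5.19% of all genes). Six3 and Gsx1 had one in CKO cells alone, and Dlx1, Lhx1, Lhx4, Lhx8, Irx5, Evx2, Pitx1 and Alx1 in control cells alone. All 10 of these had a peak in at least 1 library of the other genotype, a share not computed over all protein-coding genes. At Six3, Gsx1, Dlx1, Lhx1 and Lhx8 no peak of the other genotype touched a replicated region. Peaks in either library of a group marked 33 of the 52 genes in CKO cells (13.9% of all genes) and 37 in control cells (15.5% of all genes), with 29 in common, which is 87.9% of the CKO and 78.4% of the control genes. Over all protein-coding genes the overlap was 62.2% of the CKO and 55.7% of the control genes.

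Genes with a peak in both libraries of one genotype and in neither of the other were few. En2, an engrailed gene of the midbrain and cerebellum, had 1 peak in each CKO library, at different positions, and 0 in each control library (this pattern held for 0.466% of all genes). The reverse held for Irx3, Msx1 and Barhl2 (0.89% of all genes). CKO replicate 2 listed the fewest METTL14 peaks, which makes the first pattern harder to meet and the reverse easier. Irx3, which acts in the neural tube and heart, had 0 peaks in each CKO library, against 1 and 2 in the control libraries. Msx1, a factor of teeth, palate and limb, had 0 in each CKO library, against 1 and 1 in the control libraries. Barhl2, which acts in retina and spinal cord, had 0 in each CKO library, against 1 and 2 in the control libraries. With a 5 kb window Msx1 had a peak in all 4 METTL14 libraries, so its control pattern held only for the narrower window. Counted in the gene body alone, Irx3, Msx1 and Barhl2 each had a peak in only 1 METTL14 library. None of these 4 genes had a replicated region in either genotype, and no test of a single gene was run, since 2 libraries against 2 cannot go below p = 0.333 in an exact permutation test.

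The promoters that peaks met in the most libraries are printed here, since they show the sequence lying under METTL14 signal near the start of these genes. Each is the RefSeq window of build GRCm38.p6 from 250 bases before to 50 after an annotated start, 5′ to 3′ on the gene's own strand, for the genes with a peak in all 4 METTL14 libraries whose window was overlapped in at least 3 of them. Capitals mark bases under a deposited METTL14 peak of at least 1 library.
Gbx2, chr1:89931127-89931426, minus strand: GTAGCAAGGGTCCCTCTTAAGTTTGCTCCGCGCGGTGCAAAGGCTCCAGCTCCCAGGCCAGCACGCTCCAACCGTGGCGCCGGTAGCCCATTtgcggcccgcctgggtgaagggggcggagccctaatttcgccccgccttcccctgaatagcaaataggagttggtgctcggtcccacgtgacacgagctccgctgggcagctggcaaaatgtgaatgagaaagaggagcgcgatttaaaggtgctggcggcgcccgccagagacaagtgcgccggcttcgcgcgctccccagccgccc
Isl1, chr13:116309639-116309938, minus strand: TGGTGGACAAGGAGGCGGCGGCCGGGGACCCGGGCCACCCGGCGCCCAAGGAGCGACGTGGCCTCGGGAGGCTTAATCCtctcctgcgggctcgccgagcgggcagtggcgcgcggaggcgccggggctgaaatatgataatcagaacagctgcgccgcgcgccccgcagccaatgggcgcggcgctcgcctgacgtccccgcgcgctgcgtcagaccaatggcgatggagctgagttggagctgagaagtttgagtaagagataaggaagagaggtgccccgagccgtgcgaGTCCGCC
Dlx2, chr2:71546705-71547004, minus strand: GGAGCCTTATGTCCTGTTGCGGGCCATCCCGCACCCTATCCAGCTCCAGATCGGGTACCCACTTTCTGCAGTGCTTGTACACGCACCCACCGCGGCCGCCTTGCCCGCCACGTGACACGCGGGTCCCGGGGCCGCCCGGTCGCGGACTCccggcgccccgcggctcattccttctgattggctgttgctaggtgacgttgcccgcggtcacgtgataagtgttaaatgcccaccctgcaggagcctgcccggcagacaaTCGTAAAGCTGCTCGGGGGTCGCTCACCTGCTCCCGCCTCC
Isl2, chr9:55540899-55541198, plus strand: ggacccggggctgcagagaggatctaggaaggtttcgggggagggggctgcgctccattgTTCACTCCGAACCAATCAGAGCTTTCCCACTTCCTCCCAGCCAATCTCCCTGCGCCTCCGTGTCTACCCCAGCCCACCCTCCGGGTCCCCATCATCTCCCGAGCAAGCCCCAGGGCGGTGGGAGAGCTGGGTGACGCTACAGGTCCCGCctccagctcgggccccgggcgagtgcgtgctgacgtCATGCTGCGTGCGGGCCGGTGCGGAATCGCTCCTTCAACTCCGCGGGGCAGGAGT
Lhx8, chr3:154330511-154330810, minus strand: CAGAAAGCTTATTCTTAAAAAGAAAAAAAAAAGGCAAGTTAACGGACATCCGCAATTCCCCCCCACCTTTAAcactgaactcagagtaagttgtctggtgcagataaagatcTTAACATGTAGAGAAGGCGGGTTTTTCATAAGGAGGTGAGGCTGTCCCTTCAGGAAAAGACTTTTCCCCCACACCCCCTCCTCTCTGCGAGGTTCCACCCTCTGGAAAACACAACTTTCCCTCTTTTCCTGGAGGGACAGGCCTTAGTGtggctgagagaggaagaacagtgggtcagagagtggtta

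At Gbx2 the 92 bases in capitals are those farthest upstream, and peaks of all 4 libraries covered part of them. At Isl1 the window was touched in all 4 libraries, at its upstream end and in its last bases, where a region reaching into the gene begins. The windows of Gbx2, Isl1, Dlx2 and Isl2 held 27, 37, 29 and 23 CG dinucleotides. Lhx8 differed, with 4 CG dinucleotides and a GC content of 47.0%. For 39 of the 52 genes the promoter table had at least 1 window, 44 windows in all. Of these, 20 (45.5%) overlapped a METTL14 peak of at least 1 library, against 9.49% of the 21263 windows of all protein-coding genes.

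CG content was similar in marked and unmarked genes of the group. The median was 21.5 CG dinucleotides per 300-base window in 34 windows of genes with a METTL14 peak, and 21 in 10 windows of genes without any. Over all protein-coding genes the medians were 20 with a peak and 10 without. The letters GGGCGG, the GC box, or their reverse complement stood in 27 of the 44 windows (61.4%), against 46.2% of all windows. CACGTG was in 6 (13.6%, against 7.84%), TATAAA on either strand in 4 (9.09%, against 12.6%) and TAATTA, a core often bound by homeodomains, in 3 (6.82%, against 4.53%). GGGCGG and CACGTG each contain a CG, and CACGTG and TAATTA read the same on both strands. GGGCGG was in 55.9% of the 34 windows of genes with a METTL14 peak and in 80% of the 10 without. Over all protein-coding genes the shares were 62.3% with a peak and 41.5% without. Such matches describe the letters in these windows only.

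Many peaks at these genes lay away from the starts in the promoter table, although replicated control regions lay within 1 kb of one about as often as at all genes. The 4 METTL14 libraries merged into 133 regions at 41 of the genes, 101 of them touching the gene and 32 outside it. Another annotated gene lay under 28 of the regions, at 14 of the genes. Of 112 regions at 31 genes with an annotated start, 46 (41.1%) had their centre within 1 kb of it and 22 (19.6%) within 250 bp. Among regions at all protein-coding genes with a start, 59.9% lay within 1 kb and 37.7% within 250 bp. The median distance was 1659.5 bp for the 52 genes and 448.5 bp for all genes. The promoter table does not hold a start at the outer end of every gene. Lhx9 (chr1:138825186-138848839, minus strand) has its only start there at 138842444. Its region 5963 bp upstream of that start therefore lies inside the gene, near the outer end. Nkx2-2 and Six3 also reach upstream of the start used. How far this affects either median was not tested. Of regions replicated in CKO cells, 5 of 10 (50%) lay within 1 kb, against 72.8% over all genes, and of those replicated in control cells 10 of 15 (66.7%), against 70.5%. Judged by starts alone, which does not depend on gene length, a peak within 1 kb was found at 18 and 11 of the 39 genes in the CKO libraries (9.55% and 3.61% of all genes with a start) and at 13 and 21 in the control libraries (6.15% and 7.8%). A replicated region lay there at 5 genes in CKO cells (2.3% of all genes with a start) and at 9 in control cells (2.85%).

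**Figure D2:**
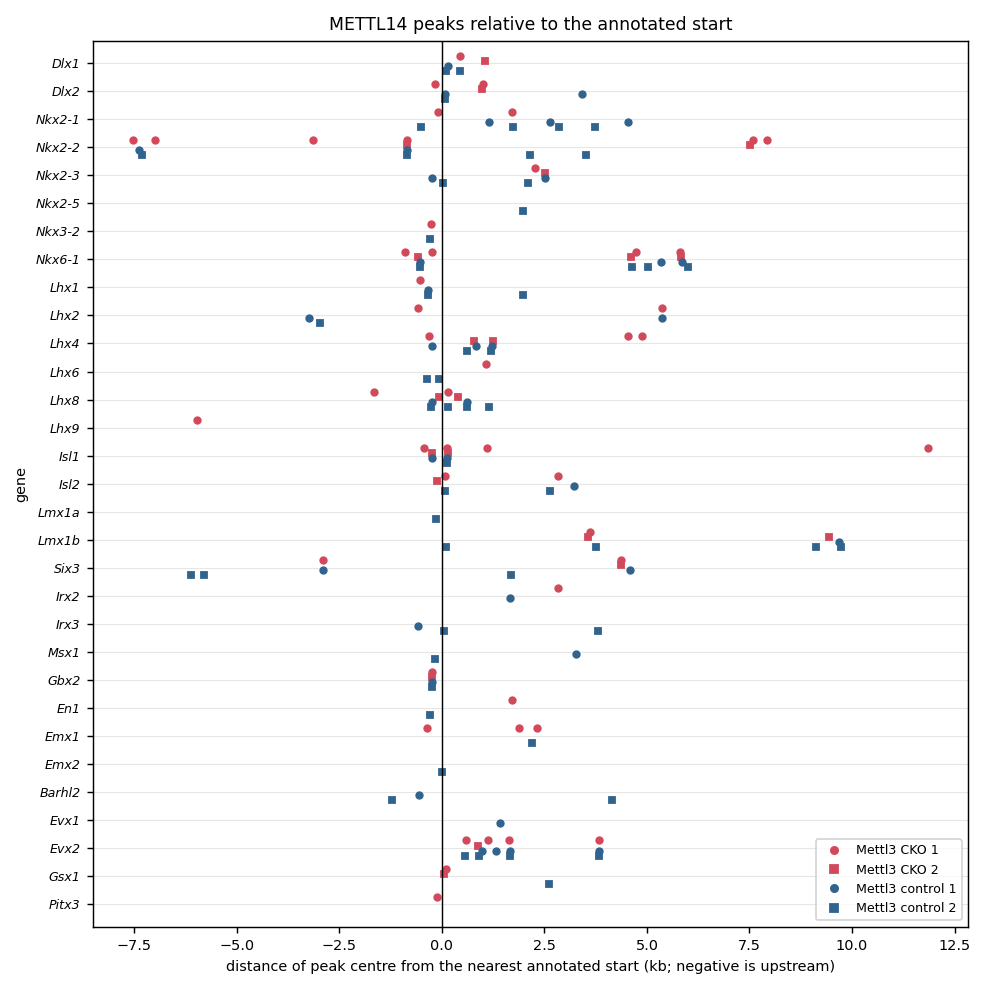
Distance in kb of each METTL14 peak centre from the nearest annotated start of its gene (horizontal axis, negative is upstream on the gene's strand) for the 31 genes with a start and a peak, with Mettl3 CKO libraries in red above Mettl3 control libraries in blue. Peaks of different libraries coincide at Gbx2 and near the start of Isl1, and spread over several kb at Nkx2-2, Nkx6-1, Lmx1b and Six3. Some peaks upstream of the start used lie inside the annotated gene, as at Nkx2-2 and Six3.

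The Nkx genes are regulators of ventral neural tube, pancreas, lung, thyroid and gut. Of the 7, 6 had a peak in at least 1 METTL14 library (20.8% of all genes). Replicated regions marked 2 of them in CKO cells and 2 in control cells (3.15% and 3.82% of all genes). Distances were measured from the centre of a merged METTL14 region to the nearest annotated start. Upstream is relative to that start, and such a region can lie inside the annotated gene where the gene reaches beyond it. Nkx6-1, a factor of pancreatic beta cells and motor neurons (chr5:101659184-101664711), had 4 and 3 peaks in the CKO libraries, against 3 and 4 in the control libraries. They formed 8 regions, 3 of them 244, 564 and 893 bp upstream and 5 of them 4662, 5016, 5349, 5833 and 6009 bp downstream, around the far end of the gene. The replicated control region was the one 564 bp upstream, at chr5:101665178-101665373, and the replicated CKO regions were those 4662 and 5833 bp downstream. Each of these 3 regions also held a peak of 1 library of the other genotype.

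Nkx2-2, which specifies ventral interneurons and beta cells (chr2:147176485-147195434), had 6 and 2 peaks in the CKO libraries, against 2 and 4 in the control libraries. The region at chr2:147187185-147187336, 858 bp upstream of the start, was called in all 4 METTL14 libraries and lies over the opposite-strand gene Nkx2-2os. A region replicated in CKO alone stood 7556 bp downstream, and one replicated in control alone 7350 bp upstream. The other 6, each of 1 library, lay 3153, 6993 and 7534 bp upstream and 2150, 3517 and 7928 bp downstream. All of these Nkx2-2 regions lie inside the annotated gene, including those upstream of the start.

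Nkx2-3, a gut and spleen factor (chr19:43612325-43615892), had 1 and 1 peaks in the CKO libraries, against 2 and 2 in the control libraries. Its regions lay 235 bp upstream and 22, 2099, 2272 and 2511 bp downstream, with CKO peaks at the last of these and at 2272 bp, and none was replicated. Nkx2-1, needed for thyroid, lung and ventral forebrain, had 2 and 0 in the CKO libraries, against 3 and 4 in the control libraries, also without a replicated region. Nkx3-2, a factor of cartilage, had 1 and 0 in the CKO libraries, against 0 and 1 in the control libraries. The heart factor Nkx2-5 had a single peak, in control replicate 2.

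Of the LIM-homeodomain genes, 7 of 8 Lhx, 2 of 2 Isl and 2 of 2 Lmx1 genes had a peak. That counts a peak of any METTL14 library, which 20.8% of all genes had. Replicated regions marked 0 Lhx genes in CKO cells and 3 in control cells (3.15% and 3.82% of all genes). They marked 1 Isl and 1 Lmx1 gene in each genotype. Isl1, a factor of motor neurons and heart progenitors (chr13:116298270-116309688), had 4 and 2 peaks in the CKO libraries, against 2 and 1 in the control libraries. Its region at chr13:116309464-116309645, 134 bp downstream of the start, was called in all 4 libraries. The others lay 247 and 433 bp upstream and 1112 and 11863 bp downstream. Isl2, also of motor neurons (chr9:55538677-55547667), had 2 and 1 in the CKO libraries, against 1 and 2 in the control libraries. Its regions, none replicated, lay 116 bp upstream and 74, 2636, 2828 and 3218 bp downstream, all inside the annotated gene.

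Lmx1b, needed for the dorsal limb and dopaminergic neurons (chr2:33560965-33641208), had 1 and 2 peaks in the CKO libraries, against 1 and 4 in the control libraries. Its replicated regions differed in place, 3582 bp downstream of the start in CKO cells and 9702 bp downstream in control cells. Peaks of single libraries lay 94, 3758, 9110 and 9428 bp downstream. The related gene Lmx1a had a peak in control replicate 2 alone.

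Lhx8, a factor of cholinergic neurons and oocytes (chr3:154306288-154330560), had 2 and 2 peaks in the CKO libraries, against 2 and 4 in the control libraries. Replicated control regions stood 264 bp upstream and 621 bp downstream, and the others 64 and 1665 bp upstream and 154, 384 and 1152 bp downstream. The regions 264 and 1665 bp upstream lie over another annotated gene, AI606473. CKO and control peaks shared only the region at 154 bp. Lhx4, which acts with Lhx3 in the pituitary and motor neurons (chr1:155698031-155751726), had 3 and 2 in the CKO libraries, against 3 and 2 in the control libraries. A control region replicated 1220 bp downstream also held a peak of CKO replicate 2, and the others lay 282 bp upstream and 606, 803, 4537 and 4876 bp downstream. All of these Lhx4 regions lie inside the annotated gene.

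Lhx1, a head organizer gene, had 1 and 0 peaks in the CKO libraries, against 1 and 2 in the control libraries, with a replicated control region 338 bp upstream over the opposite-strand gene Lhx1os. Lhx2, a factor of eye and cortex, had 2 and 0 in the CKO libraries, against 2 and 1 in the control libraries. Lhx6, of cortical interneurons, had 1 and 0 in the CKO libraries, against 0 and 2 in the control libraries. Lhx5, of the forebrain, and Lhx9, of the gonad, were marked in CKO replicate 1 alone.

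The Dlx genes lie in linked pairs and act in forebrain interneurons, face and limbs. Of the 6, 5 were marked in at least 1 METTL14 library (20.8% of all genes). Replicated regions marked 1 in CKO cells and 2 in control cells (3.15% and 3.82% of all genes). Dlx2 (chr2:71543408-71546754) had 2 and 1 peaks in the CKO libraries, against 2 and 1 in the control libraries. The replicated CKO region, chr2:71545689-71545860, was 980 bp downstream of the start, and the replicated control region, chr2:71546597-71546745, 83 bp downstream. Single peaks lay 176 bp upstream, in a CKO library, and 3414 bp downstream, in a control library. CKO and control peaks at Dlx2 thus shared no region.

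Dlx1, the neighbour of Dlx2 (chr2:71528113-71533981), had 1 and 1 peaks in the CKO libraries, against 1 and 2 in the control libraries. Its replicated control region was 121 bp downstream of the start, and the others were 434 and 1041 bp downstream. Dlx6 (chr6:6863334-6867970) had 1 and 1 in the CKO libraries, against 1 and 2 in the control libraries, in regions at chr6:6862669-6862864, chr6:6862945-6863094 and chr6:6863630-6863778 that lie over the opposite-strand gene Dlx6os1. None was replicated. The first and second lie 470 and 240 bp outside Dlx6. Counted in the gene body alone, Dlx6 had a peak in only 1 METTL14 library. Dlx5, the neighbour of Dlx6, was marked in CKO replicate 2 and control replicate 2, and Dlx3 in control replicate 2 alone.

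The Irx genes pattern the neural tube, heart and limbs. Of the 6, 4 were marked in at least 1 METTL14 library (20.8% of all genes). Replicated regions marked 0 in CKO cells and 1 in control cells (3.15% and 3.82% of all genes). Irx5 (chr8:92357796-92361456) had 1 and 1 peaks in the CKO libraries, against 2 and 1 in the control libraries, in regions at chr8:92355961-92356192 and chr8:92356285-92356481. The second, 1315 bp outside the gene, was replicated in control cells and held a peak of CKO replicate 2. The first lies over another annotated gene, Crnde. With a 1 kb window Irx5 had a peak in no METTL14 library. Irx1 had 1 and 0 in the CKO libraries, against 1 and 1 in the control libraries, and Irx2 had 1 and 0, against 1 and 0.

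Six3, a forebrain and eye factor (chr17:85613608-85626191), had 2 and 1 peaks in the CKO libraries, against 2 and 3 in the control libraries. Its replicated CKO region was 4362 bp downstream of the start, and a region 2907 bp upstream held a peak of CKO replicate 1 and of control replicate 1. The control peaks elsewhere were 5809 and 6118 bp upstream and 1696 and 4584 bp downstream. The 3 upstream regions lie inside the annotated Six3 gene and over Six3os1.

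Gbx2, which positions the midbrain-hindbrain boundary (chr1:89927962-89931176), had exactly 1 peak in each of the 4 METTL14 libraries. These overlapped in a single region, chr1:89931335-89931495, 239 bp upstream of the start, which also lies within 2 kb of the protein-coding gene LOC102637806. Evx2, which neighbours the Hoxd cluster (chr2:74652989-74661520), had 4 and 1 peaks in the CKO libraries, against 4 and 4 in the control libraries. Its region at chr2:74658370-74658745, 1000 bp downstream of the start, was touched by peaks of all 4 libraries over 376 bp, although the CKO peaks in it lay 79 bp apart. Regions 1654 and 3830 bp downstream were replicated in control cells and held a peak of CKO replicate 1, and the others were 570 and 1310 bp downstream. Evx1, beside the Hoxa cluster, had 1 peak, in control replicate 1.

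Of the face and limb factors, Alx1 (chr10:103007847-103029549) had 2 and 1 peaks in the CKO libraries, against 3 and 2 in the control libraries. Its regions at chr10:103026770-103026998 and chr10:103027269-103027497 were replicated in control cells and each held a CKO peak, and single peaks lay at chr10:103027918-103028066 and chr10:103028773-103028921. All 4 are also within 2 kb of the protein-coding gene Gm34298. Pitx1, a hindlimb gene, had 1 and 0 in the CKO libraries, against 1 and 2 in the control libraries, with a replicated control region that also held the CKO peak. Alx4 had 1 and 0 in the CKO libraries, against 0 and 1 in the control libraries, and Pitx3, of lens and dopaminergic neurons, was marked in CKO replicate 1 alone.

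Gsx1, a forebrain factor, had 1 and 1 peaks in the CKO libraries, against 0 and 1 in the control libraries. Its replicated CKO region was 76 bp downstream of the start, and the control peak 2619 bp downstream. The cortical gene Emx1 had 3 and 0 in the CKO libraries, against 0 and 1 in the control libraries, and Emx2 had a peak in control replicate 2 alone. En1, of the midbrain and limb, had 1 and 0 in the CKO libraries, against 0 and 1 in the control libraries.

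The 11 genes without a METTL14 peak were Dlx4, Nkx6-2, Lhx3, Six2, Six6, Irx4, Irx6, Msx2, Gbx1, Barhl1 and Gsx2. Gsx2 had a peak of every METTL14 library outside the 2 kb window, between 7183 and 7196 bp from the gene. For Six2 the nearest peaks were those at its neighbour Six3, 37463 and 37469 bp away in the CKO libraries, against 37244 and 40132 bp in the control libraries. Nkx6-2 had its nearest peak at 190358 to 190454 bp in every METTL14 library. For the other 8 the nearest peak of any METTL14 library lay 20142 to 187488 bp away, at Dlx4 and Msx2.

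Peaks at these genes stood early in the deposited lists. The order of a list is not explained in the sources used here, and the deposited score of every peak is 1, so the place is given as a description. The median place of a peak at the 52 genes was 14.5% down the list in CKO replicate 1 and 30.2% in CKO replicate 2, against 13.1% and 13.9% in the control libraries. For peaks at all protein-coding genes the medians were 50.1% and 53.1% in the CKO libraries and 48.2% and 48.9% in the control libraries. In each of the 4 METTL14 libraries the earliest of the peaks at these genes was at Nkx6-1, at 4.23% and 10.3% in the CKO libraries, against 6.14% and 4.91% in the control libraries.

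**Figure D3:**
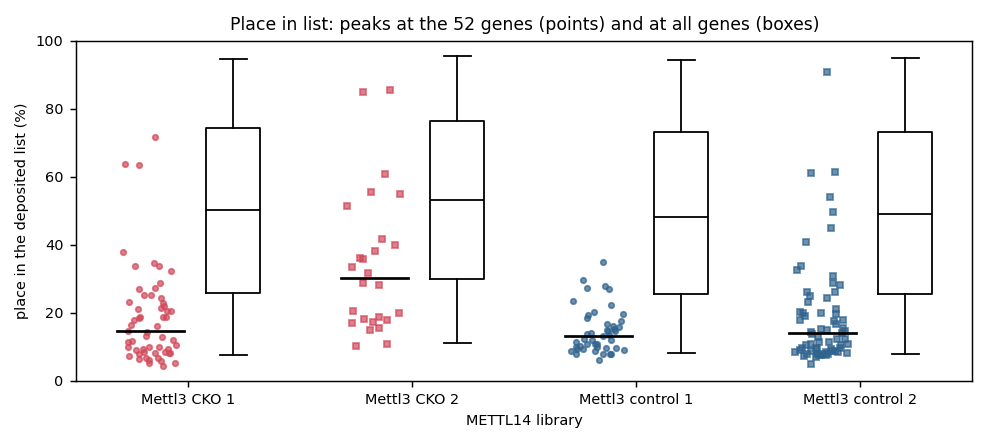
Place of each METTL14 peak in its deposited list (percent of the list, vertical axis, 0 is the top) at the 52 genes (points, with the median as a bar), beside all peaks in or within 2 kb of a protein-coding gene (boxes show quartiles and median, whiskers the 5th and 95th percentiles). Medians at the 52 genes run from 13.1% to 30.2%, and those at all genes from 48.2% to 53.1%. A place in percent depends on list length, which was shortest in CKO replicate 2.

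Other homeobox genes outside the Hox clusters were marked at shares that were also above those of all protein-coding genes. The shares of all protein-coding genes were 12.9% and 4.91% in the CKO libraries and 9.71% and 11.2% in the control libraries. Among 13 genes of the same families outside the 52, 5 and 3 had a peak in the CKO libraries (38.5% and 23.1%). In the control libraries 5 and 5 did (38.5% in each). Only 6 of these 13 had any METTL14 peak, so their shares rest on few genes. Among 50 developmental homeobox genes of other families, 25 and 16 were marked in the CKO libraries (50% and 32%). In the control libraries 19 and 23 were (38% and 46%). A further 24 homeobox genes, such as Pbx, Meis and Zhx genes, had 14 and 9 marked in the CKO libraries (58.3% and 37.5%). In the control libraries 12 and 11 of the 24 were marked (50% and 45.8%). Those 24 have a median length of 118238 bp, and their windows held 5.53 and 3.99 peaks per Mb in the CKO libraries and 4.92 and 4.61 in the control libraries. The 52 genes had 57.2 and 26.1 peaks per Mb in the CKO libraries, against 45.2 and 66.2 in the control libraries. The 13 genes of the same families had more in every METTL14 library, 82.6 and 45.0 in the CKO libraries, against 90.1 and 113 in the control libraries. The 50 developmental genes of other families had 41.1 and 22.6 in the CKO libraries, against 32.9 and 40.1 in the control libraries. Peaks gather at starts, so a value per Mb falls with gene length by construction. No difference between these lists was tested.

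**Figure D4:**
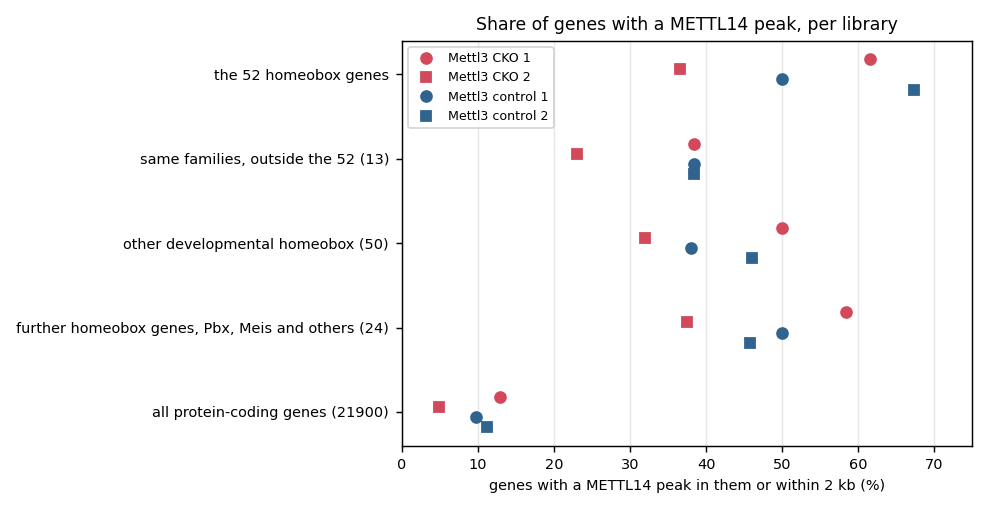
Share of genes (percent, horizontal axis) with a METTL14 peak in them or within 2 kb, in each of the 4 METTL14 libraries, for the 52 genes, 3 other groups of homeobox genes and all protein-coding genes. The 52 genes lie between 36.5% and 67.3% and all protein-coding genes between 4.91% and 12.9%, with the other homeobox groups between 23.1% and 58.3%.

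METTL3 peaks were found at none of the 52 genes. The count was 0 of 52 in both Mettl14 CKO libraries (0.393% and 0.584% of all genes) and in both Mettl14 control libraries (0.635% and 0.566% of all genes), and a count of 0 allows a share of up to 5.77%. At these background rates fewer than 1 of 52 genes would carry a peak, so these lists cannot show that METTL3 is absent from them. Replicated METTL3 regions were at 0.164% of all genes in CKO and 0.151% in control cells, and a METTL3 peak of any library at 1.53%. The nearest METTL3 peak to any of them lay 484951 and 192255 bp away in the CKO libraries, against 63700 and 155917 bp in the control libraries. METTL14 libraries marked 28 ± 7.07 genes (SD, n = 4) and METTL3 libraries 0 (n = 4), a difference of 28 (two-sided exact permutation p = 0.0286, the smallest that 4 against 4 allows). With METTL3 at 0 throughout, any METTL14 counts above 0 in all 4 libraries give that p. List length differed between the antibodies and cannot be told apart from them in that comparison. With all 8 lists shortened to their first 242 peaks, the METTL14 libraries marked 4 and 2 of the 52 genes in CKO cells (0.365% and 0.397% of all genes) and 3 and 1 in control cells (0.306% and 0.32% of all genes). The METTL3 libraries marked 0, with 0.393% and 0.402% of all genes marked in CKO and 0.329% and 0.361% in control cells. At that length the METTL14 counts are themselves so low that no difference between the antibodies is drawn from them, and they rest on the unexplained order of the lists.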

How the data were processed

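Peak positions from 8 CUT&RUN libraries were analysed. Each deposited list holds the peaks of 1 library, so replicates were not pooled, and the deposited score is 1 for every peak. Per the submitters' processing notes, CASAVA, Trimmomatic 0.38, Bowtie2 2.4.1, SAMtools and HOMER were used with build mm10, with no role or order given. No source used here gives the peak threshold, a background library or the depth. BED intervals were turned to 1-based positions. Genes and annotated starts came from RefSeq tables of GRCm38.p6. A gene was counted as marked when a peak lay in it or within 2 kb of it, and a replicated region needed peaks of both libraries sharing at least 1 bp. Exons, introns and UTRs were not used here. Tests were two-sided exact permutation tests over libraries (Python 3.11.15, numpy 2.4.6, pandas 2.3.3, scipy 1.17.1). Counting was tested on simulated peaks. The genes, the comparison lists and the tests were chosen with earlier results of these data known. Genes with a replicated region were named with their peaks per library, and those with a peak in 1 library or none by name. Positions were given for every gene with a peak in all 4 METTL14 libraries. The alternatives were other windows, nearest-gene assignment, shortened lists, other overlap rules, each library left out and labels permuted within replicate number.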

Additional observations from a re-analysis of the deposited data

How the results depend on the processing

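Of 96 recomputed values 76 kept their direction and their side of the threshold or stayed within 1.5 times the count. Part of that tally was fixed in advance, because METTL3 counts were 0 throughout. Exact permutation tests of 2 libraries against 2 could not cross the threshold either, as their p cannot go below 0.333. The tally is therefore no measure of robustness. The difference in marked genes between CKO and control was 1 with all 8 lists shortened to 242 peaks (chosen after seeing the data), and -11.5 to 1.5 with 1 library left out. The difference in the share of each list's peaks was 0.0309 percentage points without Evx1 and Evx2, and -0.231 to 0.192 with 1 library left out. With peaks widened by 500 bp, 18 genes had a replicated region in CKO cells (3.9% of all genes) and 15 in both genotypes. Peaks of either library marked 33 genes in CKO, 37 in control and 29 in both (87.9% and 78.4% of them, against 62.2% and 55.7% over all genes). With 1 library left out, a single library stood for a group. The counts were then 19 to 32 in CKO (4.91% to 12.9% of all genes). They were 26 to 35 in control (9.71% to 11.2% of all genes) and 7 to 14 in both. Replicated regions within 1 kb of a start (added after seeing the data) marked 5 genes in CKO and 9 in control, and lists of 242 peaks (also added) 1 and 1. Fewer peaks or genes enter these counts by construction. For the counts of 15, of 7 to 14, and of 1 and 1, the share over all genes was not computed. With the labels permuted within replicate number as a block, the difference in marked genes was -5 (exact permutation p = 1, smallest possible 0.5), that in the share -0.0196 (p = 1) and that for METTL3 0 (p = 1). Same-numbered METTL14 libraries showed no shared deviation (correlation 0.00715 over 8091 merged regions, and -0.0145 over 871 for METTL3), and the numbers were not taken as pairs. Of METTL14 regions at genes, 69.4% were called in 1 library only. A correlation near 0 on such calls cannot exclude a shared batch. Unknown depth limits every count.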
